A study of Mus musculus with 2 samples.

Results

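The 9 genes described here encode the interchangeable subunits of canonical Polycomb repressive complex 1 (PRC1) in mouse embryonic stem (ES) cells: the chromobox genes Cbx2, Cbx6, Cbx7 and Cbx8, the polyhomeotic genes Phc1, Phc2 and Phc3, and the PCGF genes Pcgf2 and Bmi1. They were chosen by symbol as the subunits of this complex, with earlier results of these data known, and are 9 of the 13620 genes listed in the deposited expression table. Polyadenylated RNA was sequenced from wild-type ES cells of the C57BL/6J strain and from ES cells of the same strain with the genotype Fbxl10 T/T, with 1 library per genotype. Fbxl10 is an older symbol of Kdm2b, and what the T allele changes in it, and whether each line is 1 clone or each library a culture of its own, is not stated in the labels. Cells of both genotypes were grown in serum with leukemia inhibitory factor (LIF) on inactivated fibroblast feeder cells, most of which were removed by attachment to plastic before use. Without replicates no difference between the genotypes could be tested, so "higher" and "lower" describe these 2 libraries, and the intervals given are exact 95% intervals that cover counting error only.

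PRC1 is a ubiquitin ligase of chromatin. Every form of it holds a RING1 or RNF2 (RING1B) subunit, which adds ubiquitin to histone H2A, bound to 1 PCGF protein. Canonical PRC1 is built on PCGF2 (also called MEL18) or BMI1 (also called PCGF4) and carries a CBX and a PHC subunit. The CBX protein has a chromodomain that reads the histone H3 lysine 27 methylation laid down by PRC2, and the PHC protein has a SAM domain that polymerises and compacts chromatin. Variant forms carry RYBP or YAF2 in place of CBX and PHC. KDM2B belongs to the variant form built on PCGF1 and recruits it to unmethylated CpG islands through its CXXC domain. In ES cells CBX7 is known as the main chromobox subunit, and CBX2 and CBX8 are known to gain as CBX7 declines on differentiation.

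Levels are the deposited normalised read counts, scaled to an effective library size and called CPM. Whole reads could be recovered from them. Over the listed genes, the wild-type library held 21198574 reads and the Fbxl10 T/T library, called T/T from here on, 27109446. These are not totals of the libraries. The levels of the listed genes summed to 887645 CPM in wild type and 1098140 CPM in T/T, so they are not scaled to equal sums. Kdm2b itself was at 102.5 CPM in wild type and 10.6 CPM in T/T. Of 12 pluripotency markers 9 were at least 2-fold lower and none was higher, with a summed level of 6150 CPM in wild type and 1319 CPM in T/T. All 10 primitive endoderm markers were at least 2-fold higher, with sums of 5055 and 47532 CPM. Of 8 measured fibroblast markers, which would mark feeder RNA, 1 was lower and none higher, with sums of 430.5 and 354.4 CPM. Nanog was at 782 and 48.8 CPM, the endoderm factor gene Gata6 at 60.0 and 653 CPM. The fibroblast list had a median log2 ratio of -0.57, with the collagen genes Col1a1 at 102 and 117 CPM, Col1a2 at 168 and 145 CPM and Col3a1 at 30.1 and 25.03 CPM. None of the markers measured was at 0 in either library. In RNA from a whole culture, fewer cells of a type and less RNA per cell cannot be told apart, and the part of this shift between cell types in the values below was not tested.

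Phc1, Cbx7 and Cbx2 were lower in T/T, and Phc2 and Bmi1 were higher. In wild type Phc1 and Cbx7 were the largest of the measured PHC and CBX members. At a 2-fold threshold on the log2(CPM + 0.5) scale, 4 of the 9 member rows were lower, 2 higher and 3 in between. Over the 13512 genes that reached 1 CPM in either library, 20.6% were lower, 14.8% higher and together 35.3% were 2-fold different. The 8 members with a row of their own passed that minimum, as did the row that Cbx6 shares with Nptxr, which is 1 of the 4 lower rows and is no measurement of Cbx6 alone. The members' log2 ratios ranged from -3.44 to 1.20 with a median of -0.33, against a median of 0.02 over all genes. With the libraries rescaled to a common upper quartile, Phc2 (0.97) and Bmi1 (0.96) were no longer 2-fold higher.

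**Figure D1:**
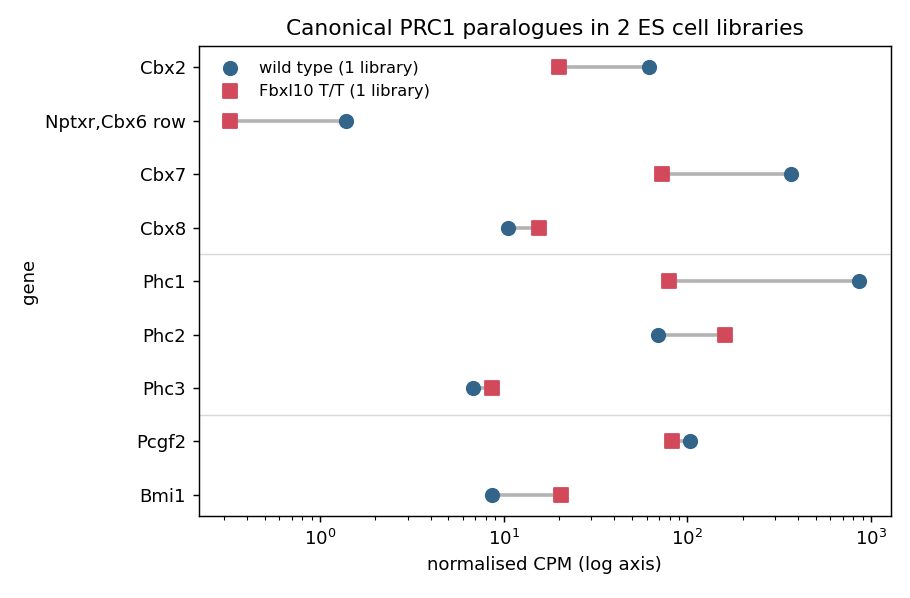
Normalised CPM (log axis) of each member in the wild-type library (circle) and the T/T library (square), 1 library each. Phc1 spans the widest gap, from 861 to 79.0 CPM, while Cbx8, Phc3 and Pcgf2 stay within 2-fold.

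Phc1, the polyhomeotic subunit best known from ES cells, was at 861 CPM (20567 reads) in wild type and 79.0 CPM (1950 reads) in T/T. Its level in T/T was 9.17% of that in wild type (interval 8.75 to 9.61%), a 10.9-fold difference. Only 188 of the 13512 genes had a smaller log2 ratio than its -3.44, so it is the 189th from the bottom of the range. The deposited table places Phc1 (ENSMUSG00000040669) on chromosome 6 from 122267749 to 122288669 in mm9. RefSeq gives it 1 promoter, and the 250 bases before its start (chr6:122340228-122340477, minus strand, GRCm38.p6) are shown because this is the member with the largest difference. Capitals mark CpG, the dinucleotide that the CXXC domain of KDM2B binds when unmethylated.
Phc1: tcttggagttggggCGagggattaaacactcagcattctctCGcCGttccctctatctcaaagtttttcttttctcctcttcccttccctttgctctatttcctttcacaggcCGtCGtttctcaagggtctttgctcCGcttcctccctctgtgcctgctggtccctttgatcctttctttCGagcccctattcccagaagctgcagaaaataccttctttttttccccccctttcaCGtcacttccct
The stretch held 8 CpG at a GC content of 49.6%, and 43.0% of the 32851 mouse promoters in that set held as many or more.

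Phc2, a more broadly expressed polyhomeotic paralogue, was at 69.3 CPM (1656 reads) in wild type and 160.5 CPM (3961 reads) in T/T, 2.31-fold higher (interval 2.18 to 2.45). Phc3, the third paralogue, was at 6.83 and 8.59 CPM (163 and 212 reads), 1.26-fold apart (interval 1.02 to 1.55). The largest PHC RNA was therefore Phc1 in wild type and Phc2 in T/T. Phc1 took 91.9% of the group's 22386 reads in wild type (Clopper-Pearson interval 91.5 to 92.2%) and 31.8% of 6123 reads in T/T (30.7 to 33.0%). Phc2 took 7.40% (7.06 to 7.75%) and 64.7% (63.5 to 65.9%), and Phc3 0.728% (0.621 to 0.848%) and 3.46% (3.02 to 3.95%). With Phc1 left out of the sum, the share of Phc3 was lower in T/T, at 8.96% in wild type and 5.08% in T/T. Phc2 then took 91.0% and 94.9%. The ratio of Phc1 to Phc2 reads went from 12.4 to 0.492, a 25.2-fold change (interval 23.4 to 27.2). Scaling between libraries cannot alter this change, nor can gene length if each gene has the same transcripts in both libraries, which was not tested. The 2.31-fold higher Phc2 did not make up the difference in Phc1, since the PHC genes summed to 937 CPM in wild type but to 248 CPM in T/T, 3.78-fold lower.

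Cbx7 was the most abundant chromobox RNA of the group in both libraries. It was at 368 CPM (8788 reads) in wild type and 72.5 CPM (1791 reads) in T/T, or 19.7% of wild type (interval 18.7 to 20.7%), a 5.07-fold difference. Phc1 and Cbx7 were the members more than 4-fold lower on the log2(CPM + 0.5) scale, a size that 9.1% of all genes reached in that direction. None was 4-fold higher, beside 3.84% of all genes, and 12.9% of all genes passed this threshold in either direction. Cbx7 (ENSMUSG00000053411) lies on chromosome 15 from 79746237 to 79763082 in mm9. Its promoter is shown beside that of Phc1 because the second largest difference came with a much denser CpG content (chr15:79932647-79932896, minus strand, GRCm38.p6, capitals again marking CpG).
Cbx7: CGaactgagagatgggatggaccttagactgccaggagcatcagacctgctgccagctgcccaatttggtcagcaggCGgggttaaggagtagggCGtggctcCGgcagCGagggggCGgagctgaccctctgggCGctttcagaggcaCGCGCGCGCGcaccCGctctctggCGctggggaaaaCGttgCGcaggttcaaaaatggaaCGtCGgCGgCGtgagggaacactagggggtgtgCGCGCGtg
It held 23 CpG at a GC content of 64.8%, and 13.3% of all promoters held as many or more. In the full GENCODE M21 set, which is wider than the basic set used for lengths, 100 bases of Cbx7 exon (1.54%) also lie in exons of Apobec3 on the opposite strand. The deposited mm9 coordinates of these genes do not overlap and lie 4685 bases apart. The strand setting of the counting is not given in the sources used here.

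Cbx2 and Cbx8, which lie 7.17 kb apart on chromosome 11 and encode chromobox subunits with long C-terminal tails, differed in direction. Cbx2 (ENSMUSG00000025577) was at 61.5 CPM (1469 reads) in wild type and 20.1 CPM (495 reads) in T/T, 3.07-fold lower (interval 2.77 to 3.40). Cbx8 (ENSMUSG00000025578) was at 10.6 CPM (253 reads) and 15.5 CPM (382 reads), 1.46-fold above wild type (interval 1.24 to 1.72) and so within the 2-fold range. The ratio of Cbx2 to Cbx8 reads went from 5.81 to 1.30, a 4.48-fold change (interval 3.71 to 5.41).

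No separate value can be given for Cbx6. The symbol stands in the table only in a row shared with Nptxr, a neuronal pentraxin receptor gene, under an identifier (ENSMUSG00000022421) that GENCODE M21 gives to Nptxr alone. That row had 33 reads in wild type and 8 in T/T, or 1.38 and 0.324 CPM, 4.26-fold lower (interval 1.93 to 10.7). Its log2 ratio of -1.19 moved to -0.85 with a pseudocount of 1 CPM, which ends the 2-fold call. Reads under the identifier that GENCODE M21 gives to Cbx6 were not analysed here.

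Within the CBX group, Cbx7 took 83.4% of 10543 reads in wild type (interval 82.6 to 84.1%) and 66.9% of 2676 reads in T/T (65.1 to 68.7%). The share of Cbx2 was 13.9% (13.3 to 14.6%) and 18.5% (17.0 to 20.0%), although its level was lower. Cbx8 had the largest gain in share, from 2.40% (2.12 to 2.71%) to 14.3% (13.0 to 15.7%) of a sum that was 4.07-fold lower. The ratio of Cbx7 to Cbx8 reads went from 34.7 to 4.69, a 7.41-fold change (interval 6.27 to 8.75). The row shared by Nptxr and Cbx6 held 0.313% and 0.299%. With Cbx7 left out of the sum, the share of Cbx2 was lower in T/T, at 83.7% in wild type and 55.9% in T/T. The share of Cbx8 was then 14.4% and 43.2%, so only Cbx8 gained in both sums.

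**Figure D2:**
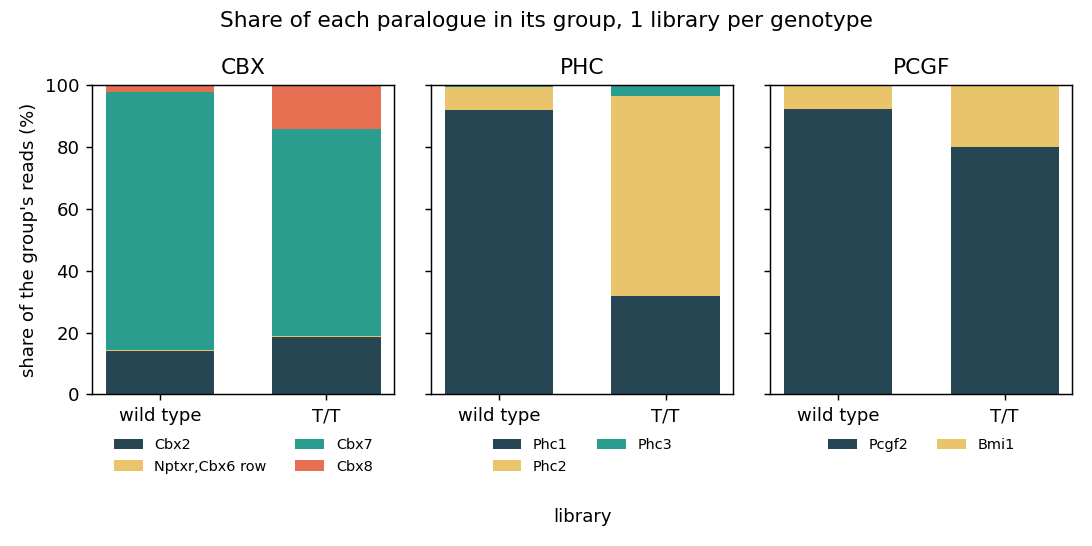
Share of each paralogue in the summed reads of the CBX, PHC and PCGF groups (%), in the wild-type and the T/T library. Phc1 goes from 91.9% to 31.8% of the PHC reads, while Cbx7 (66.9% in T/T) and Pcgf2 (80.1%) remain the largest of their groups.

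The PCGF pair, which sets whether PRC1 can take up CBX and PHC subunits, differed least in sum. Pcgf2 (ENSMUSG00000018537, chromosome 11 from 97551106 to 97561660 in mm9) was at 104 CPM (2475 reads) in wild type and 82.3 CPM (2032 reads) in T/T, 1.26-fold lower (interval 1.19 to 1.34). Bmi1 (ENSMUSG00000026739, chromosome 2 from 18598645 to 18608256), a paralogue known from adult stem cells, was at 8.67 CPM (207 reads) and 20.5 CPM (505 reads), 2.36-fold higher (interval 2.00 to 2.79). Pcgf2 took 92.3% of 2682 reads in wild type (interval 91.2 to 93.3%) and 80.1% of 2537 reads in T/T (78.5 to 81.6%), and Bmi1 the other 7.72% (6.74 to 8.79%) and 19.9% (18.4 to 21.5%). The ratio of Pcgf2 to Bmi1 reads went from 11.96 to 4.02, a 2.97-fold change (interval 2.50 to 3.53). Together they gave 112 CPM in wild type, against 103 CPM in T/T.

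**Figure D3:**
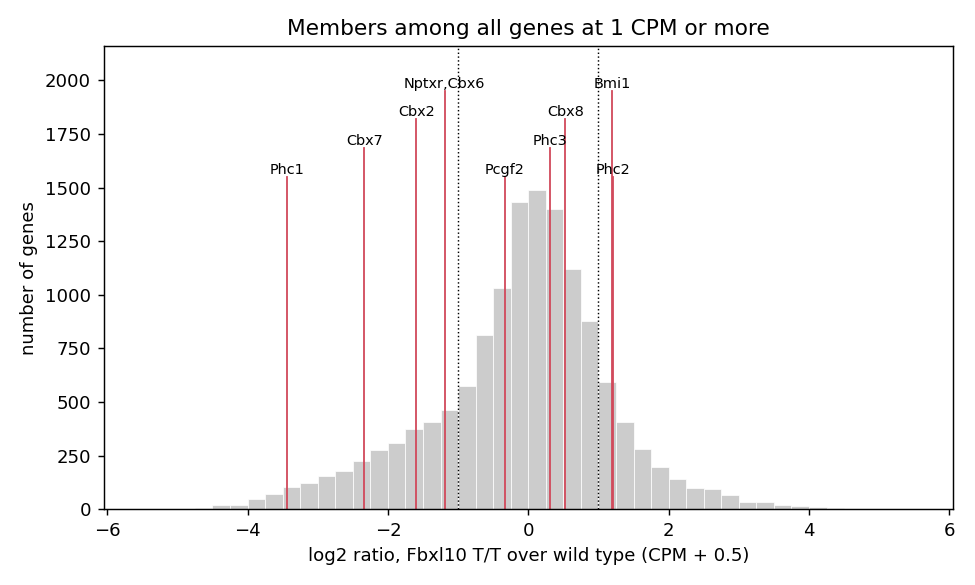
Histogram of the log2 ratio of T/T over wild type, on the CPM + 0.5 scale, for the 13512 genes that reached 1 CPM in either library, with each member as a vertical line and the 2-fold thresholds dotted. Phc1 (-3.44) and Cbx7 (-2.33) lie in the lower tail, and Phc2 (1.20) and Bmi1 (1.19) just beyond the upper threshold.

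Per kilobase of exon (GENCODE M21 basic set), the scale on which different genes can be set side by side, the order of the members changed at the top. In wild type Phc1 was first at 199.8 CPM per kb, followed by Cbx7 at 108 and Pcgf2 at 36.5 CPM per kb. In T/T Phc2 was first at 37.4 CPM per kb, followed by Pcgf2 at 29.0, Cbx7 at 21.3 and Phc1 at 18.3 CPM per kb. Neighbours in these orders whose exact Poisson intervals overlapped were Phc2 (16.2) with Cbx2 (16.2) and Cbx8 (2.96) with Bmi1 (2.34) in wild type, and Bmi1 (5.53) with Cbx2 (5.27) in T/T. Phc3 was last in both libraries, at 0.584 and 0.735 CPM per kb. The 8 members with a length of their own therefore spanned from 0.584 to 199.8 CPM per kb in wild type and from 0.735 to 37.4 in T/T. Among 13338 genes with a length, Phc1 stood at percentile 97.6 of the levels in wild type and 68.6 in T/T, Cbx7 at 94.8 and 71.4, and Phc2 at 68.4 and 81.5.

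Summed per kilobase, the CBX and PHC groups were lower while the RING and PCGF groups, to which they attach, were nearly level. Cbx2, Cbx7 and Cbx8 together gave 127 CPM per kb in wild type and 30.9 CPM per kb in T/T, 4.12-fold lower. The PHC genes gave 217 and 56.5 CPM per kb, 3.83-fold lower. That lower PHC sum came from Phc1, since Phc2 and Phc3 alone gave 16.8 and 38.2 CPM per kb, 2.28-fold higher. Cbx2 and Cbx8 without Cbx7 gave 19.1 and 9.59 CPM per kb, 1.99-fold lower. Pcgf2 and Bmi1 gave 38.9 and 34.6 CPM per kb. The catalytic genes Ring1 and Rnf2 gave 21.7 and 23.1 CPM per kb. Relative to that RING sum, the CBX sum was 5.86 in wild type and 1.34 in T/T, the PHC sum 9.98 and 2.45, and the canonical PCGF sum 1.79 and 1.496. These are ratios of RNA levels, and protein was not measured.

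**Figure D4:**
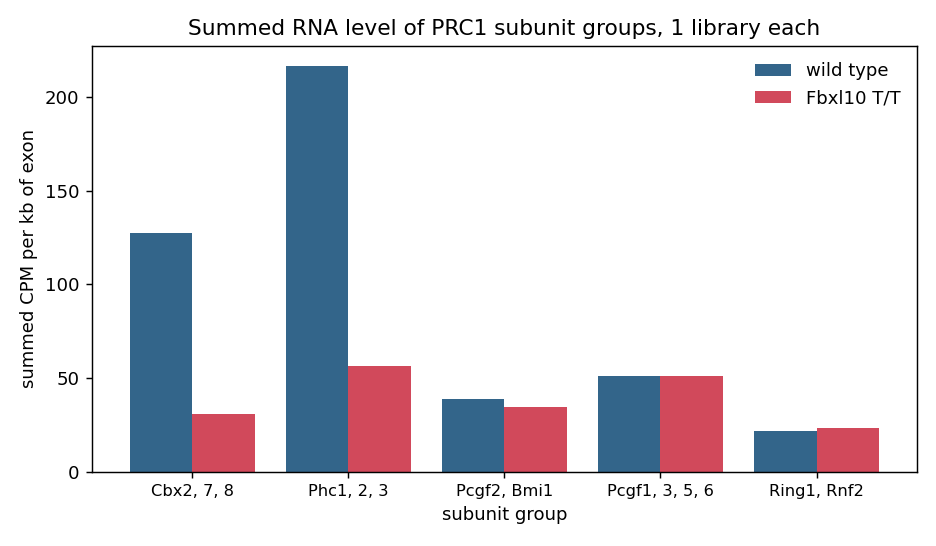
Summed level (CPM per kb of exon) of the PRC1 subunit groups in wild type and T/T, as bars from 0, 1 library each. The CBX sum goes from 127 to 30.9 and the PHC sum from 217 to 56.5, while Pcgf2 with Bmi1, the variant PCGF genes and Ring1 with Rnf2 are nearly level.

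The PCGF genes of variant PRC1, Pcgf1, Pcgf3, Pcgf5 and Pcgf6, summed to 51.2 CPM per kb in wild type and 50.99 CPM per kb in T/T. Within all 6 PCGF genes, per kilobase, Pcgf2 took 40.6% in wild type and 33.9% in T/T, and Bmi1 2.60% and 6.47%. Pcgf5 made the largest gain, from 14.7 to 76.6 CPM, or from 2.42% to 13.3% per kilobase. Pcgf1, the partner of KDM2B, was at 8.25 and 7.86 CPM.

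The partners of the members in the Polycomb system were counted by the same 2-fold rule from gene lists. By that rule 14.8% of all genes were higher and 20.6% lower. Both catalytic genes lay in between, with Ring1 at 13.9 and 20.6 CPM and Rnf2 at 49.7 and 43.3 CPM. Of 4 measured genes for other PRC1-associated proteins (Scml2 and Scml4 were not analysed here), 1 was higher and 1 lower. Sfmbt2, which encodes an MBT-repeat protein of extraembryonic lineages, was at 22.0 CPM in wild type and 297 CPM in T/T. L3mbtl2, a subunit of the PCGF6 form, was at 212 and 95.6 CPM. Scmh1 (55.9 and 36.7 CPM) and Sfmbt1 (14.9 and 29.0 CPM) lay in between.

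Of the 16 genes of variant PRC1, 2 were higher, 5 lower and 9 in between, with a median log2 ratio of -0.13. These counts stand beside 14.8% higher and 20.6% lower over all genes. Beside Pcgf5, the higher gene was Yaf2, which encodes the subunit that takes the place of CBX, at 17.5 and 46.6 CPM. Its paralogue Rybp was at 29.2 and 35.9 CPM. Beside Kdm2b, the lower genes were Bcor, the corepressor of the KDM2B form (131 and 50.4 CPM), Auts2 (22.5 and 1.54 CPM), Fbrsl1 (94.0 and 45.1 CPM) and Wdr5 (370.4 and 185 CPM). Wdr5 lay just past the 2-fold threshold. The other genes in between were Pcgf1, Pcgf3, Pcgf6, Bcorl1, Fbrs, Dcaf7, Usp7 and Skp1a.

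Of 12 PRC2 genes, 1 was higher, 3 lower and 8 in between, with a median of -0.30. With so few genes, these counts do not set the list apart from all genes (14.8% higher and 20.6% lower). The core genes of the methyltransferase lay in between, with Ezh2 at 51.04 and 62.1 CPM, Suz12 at 41.2 and 42.7 CPM and Eed at 92.6 and 64.4 CPM, as did Ezh1, Rbbp4, Rbbp7, Aebp2 and Epop. The genes past the threshold encode accessory subunits. Jarid2 (499 and 112 CPM), Mtf2 (34.7 and 13.0 CPM) and Phf19 (12.6 and 1.09 CPM) were lower, and Phf1 (15.0 and 34.4 CPM) was higher. The HP1 genes Cbx1, Cbx3 and Cbx5 encode chromobox proteins that read lysine 9 methylation and belong to no canonical PRC1 complex. Of these, Cbx1 was 3.15-fold lower, at 242 and 77.0 CPM, and Cbx5 was at 106 and 84.8 CPM. Cbx3 was at 5.69 and 7.86 CPM and has processed pseudogenes, so its level is uncertain.

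Genes listed within 500 kb of Phc1 were not uniformly lower. Of 13 such genes 6 were lower, 2 higher and 5 in between, beside 20.6% lower and 14.8% higher over all genes. Those lower include the pluripotency genes Nanog (782 and 48.8 CPM, 369 kb away), Gdf3, a growth factor gene (186 and 12.6 CPM), and Dppa3 (5.74 and 0.932 CPM), together with Rimklb, Apobec1 and 1700063H04Rik. The nearest listed gene, M6pr, which encodes a mannose 6-phosphate receptor, lies 51 bases from Phc1 and was named for that place after its value was seen. It was at 261 CPM in wild type and 378 CPM in T/T. Slc2a3, a glucose transporter gene 389 kb away, was 2.45-fold higher, and the forkhead gene Foxj2 5.34-fold. Phc1 was less reduced than Nanog, with a ratio of Phc1 to Nanog reads of 1.10 in wild type and 1.62 in T/T, a 1.47-fold change (interval 1.37 to 1.59).

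Around Bmi1, Phc2 and Pcgf2 the genes past the threshold all lay in 1 direction, and around the other members they were mixed. These small counts stand beside 20.6% lower and 14.8% higher over all genes, and no departure from those shares was tested. Of 4 genes listed within 500 kb of Bmi1, 3 were higher. Commd3, which encodes a COMM domain protein and lies 0.802 kb from Bmi1, was at 32.4 and 90.1 CPM, and the ratio of Bmi1 to Commd3 reads was 0.268 in wild type and 0.227 in T/T (change 0.848, interval 0.707 to 1.02). Pip4k2a, a lipid kinase gene, was 5.24-fold and Dnajc1, a chaperone gene, 2.73-fold higher. Around Phc2, the other higher member, none of 12 genes was higher and 5 were lower (Azin2, Tmem54, Hpca, Fndc5 and S100pbp). Around Cbx7 3 of 22 genes were higher (Kdelr3, Sun2 and Tab1) and 6 lower, among them Apobec3, at 40.8 and 4.58 CPM, and the growth factor gene Pdgfb, with a log2 ratio of -3.58. Around Cbx2 2 of 10 genes were higher (Gaa and Sgsh, both for lysosomal enzymes) and 3 lower (Rbfox3, Ccdc40 and Rnf213). Around Pcgf2 none of 22 genes was higher and 5 were lower (Srcin1, Mllt6, 1700001P01Rik, Plxdc1 and Stac2), and around Phc3 1 of 7 was higher (Sec62) and 3 lower.

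**Figure D5:**
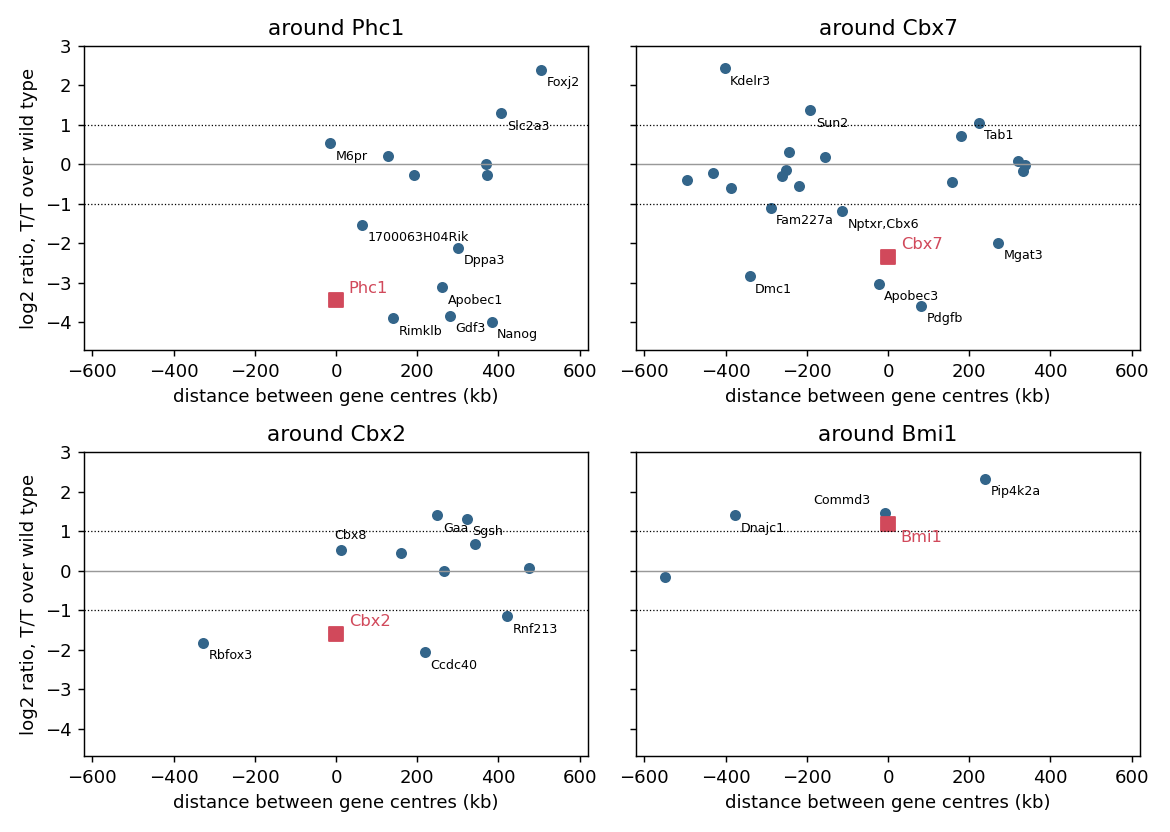
Log2 ratio of T/T over wild type (CPM + 0.5) for listed genes within 500 kb of Phc1, Cbx7, Cbx2 and Bmi1, against the distance between gene centres in kb; the square is the member and the dotted lines are the 2-fold thresholds. Around Phc1 the lower genes Nanog, Gdf3 and Rimklb stand beside M6pr, Slc2a3 and Foxj2, which were above wild type. Of only 4 genes around Bmi1, 3 were higher, beside 14.8% of all genes.

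RefSeq promoters were matched by symbol for 8 members, with 10 promoters in all because Phc2 has 3 start sites. In the 250 bases before the start, the members' promoters held from 1 to 34 CpG, against a median of 6 over all promoters. Both ends of that range belong to Phc2, whose start sites had 13, 1 and 34 CpG, and the deposited values do not separate them. Cbx7 (23 CpG, lower) and Cbx8 (22 CpG, slightly above wild type) had similar counts, as did Bmi1 (21 CpG, higher). In these windows CpG number did not order the matched members by their ratio, and a link between CpG number and ratio was not tested.

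Searches of these stretches on both strands covered 4 motifs: ATGCAAAT (the octamer), AGATAA (bound by GATA factors), ACAATG (bound by SOX factors) and CACGTG (the E-box, its own reverse complement). The octamer was present at 1 start site of Phc2 and in 1.60% of all promoters, ACAATG at Cbx6 and in 10.7%, and AGATAA at none of the members and in 9.99%. The E-box CACGTG was present in 6 of the 10 promoters and at 6 of the 8 genes, against 6.02% of all 32851 promoters. Among promoters with 12 or more CpG it was present in 5 of the members' 7, against 9.76% of all 11003. The sites are printed because this was the letter pattern that most members had in common, each with 12 bases on either side and the E-box in capitals.
Cbx6: ggcccggagcatCACGTGacggcccgcagc
Cbx8: cgtcgttagcaaCACGTGgggcgggaggaa
Phc2: ggctggagtgggCACGTGacactctccggt
Phc3: agtcgctggcctCACGTGacctctgcgccc
Pcgf2: aaggaatgaggtCACGTGggtgagtagtgg
Bmi1: gaatgaggggagCACGTGacccggcggggg
They lie on GRCm38.p6 at chr15:79834342-79834371 (minus strand), chr11:119040994-119041023 (minus), chr4:128654633-128654662 (plus), chr3:30969480-30969509 (minus), chr11:97699768-97699797 (minus) and chr2:18676791-18676820 (plus), in that order. The distance from the E-box to the start was 20 bases at Cbx6, 92 at Cbx8, 51 at Phc2, 76 at Phc3, 131 at Pcgf2 and 209 at Bmi1. Of the members with the E-box and a value of their own, Cbx8, Phc2, Phc3 and Bmi1 were above wild type and Pcgf2 below it. Among these, Cbx8, Phc3 and Pcgf2 were within 2-fold. Phc2 had the E-box at 1 of its 3 start sites, which the deposited values do not separate. The pair of matched members without it, Phc1 and Cbx7, had the lowest ratios, and Cbx2, also lower, had no promoter matched. With 7 matched genes that have a value of their own, this is a description of letters in these windows, not of binding. Neither the frequency of the E-box, which was picked out of 4 motifs on these same promoters, nor its link to the ratios was tested. After rescaling to a common upper quartile Phc3 (0.09) was nearly level.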

How the data were processed

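The submitters' processing notes name mm9, TopHat 1.4.1, HTSeq 0.5.3p9 and edgeR. What each did, with which annotation and strand setting, is not given in the sources used here. As its values show, the deposited signal is read counts per gene, scaled to an effective library size (CPM): all values (100%) were whole multiples of 1 step per library (0.0419 and 0.0405 CPM), within 0.01 reads. The authors' deposited log2 ratios (wild type over T/T) differed by at most 0.0028 from ratios recomputed here over the 9311 genes that reached 5 CPM in each library. The table's 24706 rows hold 13620 distinct genes, each used once.

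Ratios on the log2 scale were taken after adding 0.5 CPM to each value, T/T over wild type, which understates low genes; folds use CPM without a pseudocount. A level of 3 reads is 0.126 CPM in wild type and 0.122 in T/T. Intervals of folds and shares are Clopper-Pearson, those of levels exact Poisson and those of read ratios Woolf's; PCR copies are not independent molecules. Lengths are unions of exons of the GENCODE M21 basic set, matched by identifier. Promoters are RefSeq's, GRCm38.p6, and Cbx2 had none matched. The members and lists were chosen with earlier results of these data known; 1 listed gene, and the wider grouping that needs it, are not reported here. The rule for named genes took Kdm2b, all members, the genes of the Polycomb and HP1 lists, up to 3 genes of each marker list and neighbours within 500 kb that were 2-fold different. An exact binomial test and edgeR 4.0.16 with an assumed variation of 0.2, both on recovered reads, compare the libraries, not the genotypes. The steps were tested on simulated data. Python 3.11.15, numpy 2.4.6, pandas 2.3.3, scipy 1.17.1, matplotlib 3.10.9 and R 4.3.3 were used.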

Additional observations from a re-analysis of the deposited data

How the results depend on the processing

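No paired analysis was possible because each genotype had a single library, and none could be left out. No member's ratio changed direction under the pseudocounts or rescalings tried; 27 of 36 alternative values stayed within counting error and the other 9 came from rescaling, which takes 0.13 (median) or 0.24 (upper quartile) on the log2 scale off all T/T values. With the upper quartile, 0 members were higher and 5 in between; with a 4-fold threshold, 0 were higher, 2 lower and 7 in between. Over all genes, 3582 were higher at 1.5-fold and 519 at 4-fold, while 1229 were lower at 4-fold and 1737 where 5 CPM had to be reached. Beside 1994 higher and 2781 lower genes as reported, the upper quartile gave 1443 and 3254, the median 1661 and 3025, and the 5 CPM minimum 1828 and 1737. Adding the binomial test to the 2-fold rule removed no gene at this depth (1994 higher and 2781 lower). The members' unchanged 2 higher and 4 lower therefore add nothing to that rule. The edgeR calls used significance under the assumed variation and no fold threshold, so they are another measure. They gave 2 members higher and 4 lower, and 2060 genes higher and 2861 lower.

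The shares depended more on the setting: 37 alternative values lay outside the counting interval of the reported share and 9 within it. Those outside include all settings that change which genes are summed. Leaving out Cbx7 reversed the direction of the Cbx2 share, and leaving out Phc1 that of the Phc3 share. Per kilobase of exon, Cbx7 took 85.0% of the CBX group in wild type and 69.0% in T/T, Phc1 92.3% of the PHC group in wild type and Pcgf2 94.0% and 84.0% of the pair. Per kilobase of the longest transcript, added after the data were seen, the values were 85.0% and 69.1% for Cbx7 and 94.5% and 85.3% for Pcgf2. With the 4 variant PCGF genes added, Pcgf2 took 38.0% and 27.5%, by construction. Depth limits the row shared by Nptxr and Cbx6, with 8 reads in T/T.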
